A study of Homo sapiens with 8 samples.

Results

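The genes described here are 10 immediate early genes of the AP-1 group and its neighbours, JUN, JUNB, JUND, FOS, FOSB, FOSL2, ATF3, IER2, IER5 and EGR1. They were taken by symbol from the 18133 genes of the deposited table, and all 10 were found. The table holds messenger RNA levels of DND41, a human T-ALL (T-cell acute lymphoblastic leukemia) cell line driven by mutant NOTCH1, and all libraries came from cells kept in doxycycline for 72 h. The drug induced a short hairpin RNA that targets SIRT1, a deacetylase of nuclear proteins that consumes NAD, with the construct sh1 (3 libraries, A, B and C) or sh3 (3 libraries, A, B and C), or a control hairpin, called shC in the labels (2 libraries, A and C). For sh3 C the labels conflict, with a title and genotype of the SIRT1 arm and a description that names the control hairpin. Its values correlated more closely with the other sh3 libraries (Spearman coefficient at least 0.9955 across genes) than with the controls (at most 0.9925), and the title was followed. The labels speak of triplicate plating and not of separate infections. The p-values therefore measure how far these cultures vary, and that spread may be technical.

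AP-1 is a dimer of basic leucine zipper proteins. Proteins of the JUN family pair among themselves or with FOS and ATF proteins, and the dimer binds short DNA elements known as TRE and CRE. Immediate early genes are transcribed within minutes of a stimulus without new protein synthesis, through serum response factor, ternary complex factors and CREB downstream of MAP kinases. In T cells AP-1 joins NFAT at cytokine genes after antigen receptor signalling. SIRT1 has been reported to deacetylate JUN and to lower its activity, in mouse T cells among others, which concerns the protein and not the messenger RNA measured here.

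The promoters of JUN, IER2, FOS and EGR1, each called in at least 1 comparison, are shown because the binding letters they carry differ from gene to gene. Each run gives 250 bases before and 50 bases after the start annotated by RefSeq on GRCh38.p14, 5′ to 3′ on the strand of the gene. Capitals mark matches, on either strand, to TGACGT (the core of a CRE), to TGACATCA (the AP-1-like element of the JUN promoter) and to the CArG box (the site of serum response factor).
JUN (chr1:58783998-58784297, minus strand): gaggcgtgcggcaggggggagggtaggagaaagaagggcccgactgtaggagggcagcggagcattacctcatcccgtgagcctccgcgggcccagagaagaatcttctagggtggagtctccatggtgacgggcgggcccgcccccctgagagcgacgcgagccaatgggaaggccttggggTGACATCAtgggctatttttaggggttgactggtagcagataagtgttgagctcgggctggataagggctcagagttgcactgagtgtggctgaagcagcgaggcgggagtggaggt
IER2 (chr19:13150161-13150460, plus strand): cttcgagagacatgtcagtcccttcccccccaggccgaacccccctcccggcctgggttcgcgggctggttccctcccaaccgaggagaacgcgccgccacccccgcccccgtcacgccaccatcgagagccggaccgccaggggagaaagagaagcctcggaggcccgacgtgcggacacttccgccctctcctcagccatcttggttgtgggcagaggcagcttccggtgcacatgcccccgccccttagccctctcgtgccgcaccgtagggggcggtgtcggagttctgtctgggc
FOS (chr14:75278578-75278877, plus strand): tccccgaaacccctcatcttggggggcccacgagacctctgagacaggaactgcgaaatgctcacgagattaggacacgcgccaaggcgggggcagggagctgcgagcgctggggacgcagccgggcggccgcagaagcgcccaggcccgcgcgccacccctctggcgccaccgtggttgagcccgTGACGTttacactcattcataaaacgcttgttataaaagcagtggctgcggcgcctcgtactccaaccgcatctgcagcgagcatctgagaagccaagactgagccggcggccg
EGR1 (chr5:138465229-138465528, plus strand): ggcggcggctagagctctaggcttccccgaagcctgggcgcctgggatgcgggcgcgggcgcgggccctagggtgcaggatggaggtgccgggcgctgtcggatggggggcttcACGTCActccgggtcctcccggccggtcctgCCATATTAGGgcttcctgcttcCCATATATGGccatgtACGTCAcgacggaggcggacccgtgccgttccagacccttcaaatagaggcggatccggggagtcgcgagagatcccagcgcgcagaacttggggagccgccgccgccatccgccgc
The JUN promoter held TGACATCA at -67 to -60 from the start. FOS held TGACGT at -64 to -59. EGR1 held TGACGT on the reverse strand at -136 to -131 and at -67 to -62, and a CArG box at -105 to -96 and at -83 to -74. The IER2 window held none of these letters, which says nothing about the factors themselves. Among the 10 genes TGACGT was found in 5 (JUND, FOS, FOSB, FOSL2 and EGR1), TGACATCA in JUN and ATF3, and the CArG box in EGR1. TGANTCA, a loose form of the TRE with any base in the middle, was found in FOSL2, as TGACTCA. Over 35116 RefSeq promoters of the same 300 bases TGACGT occurred in 7.98%, TGACATCA in 2.61%, the CArG box in 1.29% and TGANTCA in 7.71%. Sequence more than 250 bases before or 50 bases after the start was not searched. A gene without a match here, such as FOS for the CArG box, may carry one further away. These matches describe the sequence and were not tied to any measurement of binding.

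Values are the authors' normalized counts, whose sums lay between 33087820 and 34072666 per library. The reads behind them could not be recovered, so that the depth of each library is unknown and no counting interval is given. SIRT1 (chromosome 10, 67884669 to 67918390, GRCh38) averaged 1299.7 ± 36.5 normalized counts in the 3 sh1 libraries and 1165 ± 60.1 in the 3 of sh3 (SD), against 1832 ± 123 in the controls (SD, n = 2). The log2 change for both constructs averaged was -0.57 ± 0.063 (SE, limma adjusted p = 0.00030), a partial knockdown. Of 10 T lineage markers 8 were measured, all at a mean of at least 10, and their summed normalized counts were 67184 to 70195 with sh1, 59601 to 60378 with sh3 and 79805 to 83467 in the controls. Markers of myeloid cells summed to at most 154 and of erythroid cells to at most 24.5 in any library. Tests used limma on log2(value + 1), with a mean for each of the 3 groups, over the 13885 genes averaging 10 or more, and calls were made at an adjusted p under 0.05. Of the 10 genes 9 were tested, and FOSB, with a mean of 8.93, was not.

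Of the 9 tested genes, JUN, JUND and IER2 rose and 0 fell when both constructs were averaged and set against control, where 6.55% of all genes tested rose and 6.19% fell, 12.7% in all. The same 3 had an unadjusted p under 0.05. With sh1 2 rose (JUN and JUND) and 0 fell, where 2.88% of all genes rose and 3.43% fell, 6.31% in all, and at an unadjusted p under 0.05 2 were higher and 4 lower. With sh3 3 rose (JUN, IER2 and ATF3) and 0 fell, where 9.36% of all genes rose and 9.19% fell, 18.6% in all, and at an unadjusted p under 0.05 5 were higher and 0 lower. The constructs differed from each other in JUNB, FOS, IER2 and EGR1, all lower with sh1, where 5.83% of all genes were lower and 5.61% higher, 11.4% in all, and at an unadjusted p under 0.05 5 were lower and 0 higher. The median log2 change of the 9 genes was -0.13 with sh1, 0.31 with sh3 and -0.25 for sh1 against sh3, beside medians of -0.00044, 0.00034 and -0.0015 over all genes tested. All 6 knockdown libraries lay above both controls in JUN, JUND and IER2, as in 11.9% of all genes tested (below both in 11.4%, either in 23.2%). In JUNB, FOS, ATF3, IER2, IER5 and EGR1 every sh1 library lay below every sh3 library, as in 15.2% of all genes tested (30.5% in either direction). Without sh3 C, whose labels conflict, the averaged changes were 0.68 for JUN, 0.41 for IER2 and 0.21 for JUND (limma adjusted p = 0.0011, 0.0017 and 0.052), and the sh3 changes were 0.68 for JUN, 0.68 for IER2 and 0.33 for ATF3 (0.0018, 0.00019 and 0.076). For sh1 against sh3 they were then -0.28 for JUNB, -0.90 for FOS, -0.54 for IER2 and -0.89 for EGR1 (0.037, 0.047, 0.00051 and 0.0020), so that JUND and ATF3 lost their calls. The comparisons with control share the control libraries, and with genes chosen by name these counts are a description.

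Scaled to length, as normalized counts per kb of the longest coding transcript in GENCODE 29, JUND was the most abundant in every group and FOSB the least among the 7 AP-1 subunits of the 10 genes. Other AP-1 subunits were not ranked. JUND, a JUN protein present also in resting cells, averaged 2183 ± 163 per kb with sh1, 2049 ± 31.9 with sh3 (SD, n = 3 each) and 1834 ± 80.6 in the controls (SD, n = 2). JUN averaged 749 ± 58.8 per kb with sh1, 718 ± 89.1 with sh3 and 466 ± 3.40 in the controls. JUNB averaged 626 ± 22.7 per kb with sh1, 745 ± 32.0 with sh3 and 726 ± 40.4 in the controls. So JUN lay above JUNB in every sh1 library and below it in both controls, while with sh3 their ranges overlapped.

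The FOS side was low beside the JUN side on the per kb scale. FOSL2, a FOS protein that outlasts the first hours of a response, averaged 103 ± 12.7 per kb with sh1, 109 ± 11.5 with sh3 and 123 ± 23.7 in the controls. FOS averaged 17.9 ± 3.22 per kb with sh1, 35.6 ± 5.84 with sh3 and 27.1 ± 1.79 in the controls. FOSB stayed at or below 3.43 per kb in every library. Summed over JUN, JUNB and JUND the level was 3416 to 3794 per kb with sh1, 3402 to 3633 with sh3 and 2938 to 3114 in the controls. Summed over FOS, FOSB and FOSL2 it was 114 to 129 per kb with sh1, 139.9 to 153 with sh3 and 134 to 170.3 in the controls. The share of JUN in the summed JUN family was 20.2% to 21.5% with sh1, 19.3% to 22.6% with sh3 and at most 15.8% in the controls. Transcript usage is not given in the table, so that these lengths are approximate, most of all for genes with several transcripts such as FOS and FOSL2.

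**Figure D1:**
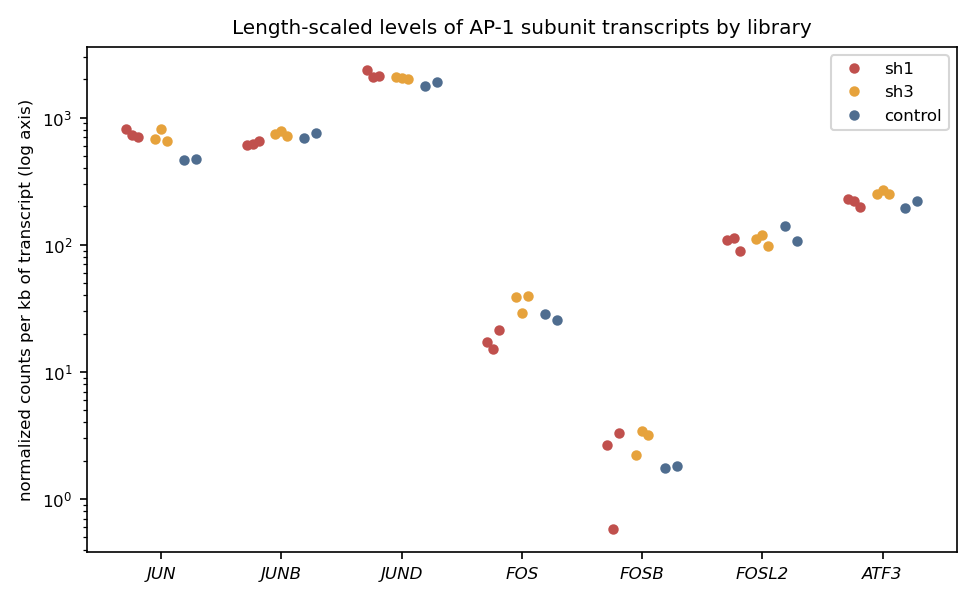
Normalized counts per kb of the longest coding transcript (log axis) for 7 AP-1 subunit genes, 1 point per library, with sh1, sh3 and control side by side. JUND sits highest, FOSB lowest, and JUN is the subunit of the JUN family whose knockdown libraries stand clearest of the controls.

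JUN rose with both SIRT1 hairpins. JUN (chromosome 1, 58780788 to 58784327, minus strand, GRCh38), the founding AP-1 subunit and a target of its own protein through the element marked above, had 2885, 2588 and 2483 normalized counts with sh1. It had 2393, 2903 and 2326 with sh3, against 1641 and 1658 in the controls. All 6 knockdown libraries lay above both controls, and the 2 controls differed by far less than the knockdown libraries did among themselves. The log2 change was 0.65 ± 0.083 (SE, 95% interval 0.47 to 0.83, limma adjusted p = 0.00085) for both constructs averaged, a 1.57-fold rise. It was 0.68 ± 0.093 with sh1 (adjusted p = 0.0022) and 0.62 ± 0.093 with sh3 (adjusted p = 0.0013). Between sh1 and sh3 the difference was 0.066 ± 0.083 (95% interval -0.12 to 0.25, adjusted p = 0.68). JUN was the only one of the 9 tested genes called in each of these 3 comparisons with control, and it stayed called there under every alternative tried, with adjusted p of at most 0.043.

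JUND rose slightly. JUND (chromosome 19, 18279760 to 18281622, minus strand) had 4414, 3853 and 3932 normalized counts with sh1. It had 3885, 3788 and 3777 with sh3, against 3311 and 3523 in the controls. The knockdown libraries did not overlap the controls, yet the lowest of them stood only a little above the higher control. The log2 change was 0.20 ± 0.057 (SE, adjusted p = 0.036) for both constructs averaged, 0.25 ± 0.063 with sh1 (adjusted p = 0.041) and 0.16 ± 0.063 with sh3 (adjusted p = 0.10, called without sh1 A at 0.038). The averaged call ended without sh3 A, sh3 B, sh3 C, control A or control C, and adjusted p ranged from 0.027 to 0.23 over all alternatives. The call with sh1 ended when any one of the 8 libraries was left out, with adjusted p between 0.0503 and 0.20.

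JUNB, a JUN family protein that can oppose JUN at some genes, differed between the constructs and was called with neither against control. JUNB (chromosome 19, 12791496 to 12793315, plus strand) had 1109, 1123 and 1187 normalized counts with sh1, 1341, 1419 and 1305 with sh3, and 1269 and 1373 in the controls. The sh1 libraries lay below all others, while sh3 and control overlapped. Set against sh3, sh1 was lower by a log2 difference of -0.25 ± 0.062 (SE, adjusted p = 0.023), and the changes were -0.21 ± 0.069 with sh1 (adjusted p = 0.096) and 0.037 ± 0.069 with sh3 (adjusted p = 0.76). The call between the constructs ended without sh1 A, sh1 B, sh3 A or sh3 B, with adjusted p from 0.020 to 0.10 over all alternatives. JUNB overlaps HOOK2 on the other strand, and HOOK2 differed between the constructs by -0.050 ± 0.075 (adjusted p = 0.73).

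FOS was lower with sh1 than with sh3. FOS (chromosome 14, 75278774 to 75282230, plus strand), the classical immediate early gene whose transcript is short-lived, had 36.9, 32.8 and 46.3 normalized counts with sh1. It had 83.4, 62.3 and 84.8 with sh3, against 61.2 and 55.7 in the controls. The 3 groups did not overlap, with sh1 lowest, the controls between and sh3 highest. The difference between sh1 and sh3 was -0.97 ± 0.21 (SE, log2 scale, adjusted p = 0.012), a ratio of 0.51. Neither construct was called against control, with -0.60 ± 0.23 for sh1 (adjusted p = 0.16) and 0.38 ± 0.23 for sh3 (adjusted p = 0.30). Without sh3 A the difference between the constructs missed the threshold (adjusted p = 0.054, range over all alternatives 0.011 to 0.054).

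FOSB and FOSL2 gave no call. FOSB (chromosome 19, 45467995 to 45475179, plus strand), which overlaps ERCC1 on the other strand, had 9.96, 2.18 and 12.4 normalized counts with sh1, 8.38, 13.0 and 12.0 with sh3, and 6.61 and 6.90 in the controls. The sh1 libraries overlapped both other groups, and all 3 sh3 libraries lay above both controls. With no filter on low values FOSB changed by 0.31 ± 0.52 for the mean of the constructs (SE, adjusted p = 0.79). FOSL2 (chromosome 2, 28392448 to 28417312, plus strand) had 732, 753 and 596 with sh1, 739, 807 and 653 with sh3, and 941 and 716 in the controls. All 3 groups overlapped, and its log2 change was -0.21 ± 0.12 for the mean of the constructs (95% interval -0.48 to 0.060, adjusted p = 0.29).

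ATF3, a stress-induced AP-1 partner that represses many of its targets as a homodimer, was called higher with sh3. ATF3 (chromosome 1, 212565334 to 212620777, plus strand) had 463, 448 and 401 normalized counts with sh1, 512, 545 and 509 with sh3, and 393 and 448 in the controls. The sh3 libraries lay above all others, while sh1 and control overlapped. The log2 change with sh3 was 0.31 ± 0.10 (SE, adjusted p = 0.0497), just inside the threshold, and it missed the threshold under 10 of 17 alternatives, with adjusted p between 0.0425 and 0.27. Those alternatives include the fits without sh1 B, without any one sh3 library and without either control. Between sh1 and sh3 the difference was -0.26 ± 0.090 (adjusted p = 0.091).

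**Figure D2:**
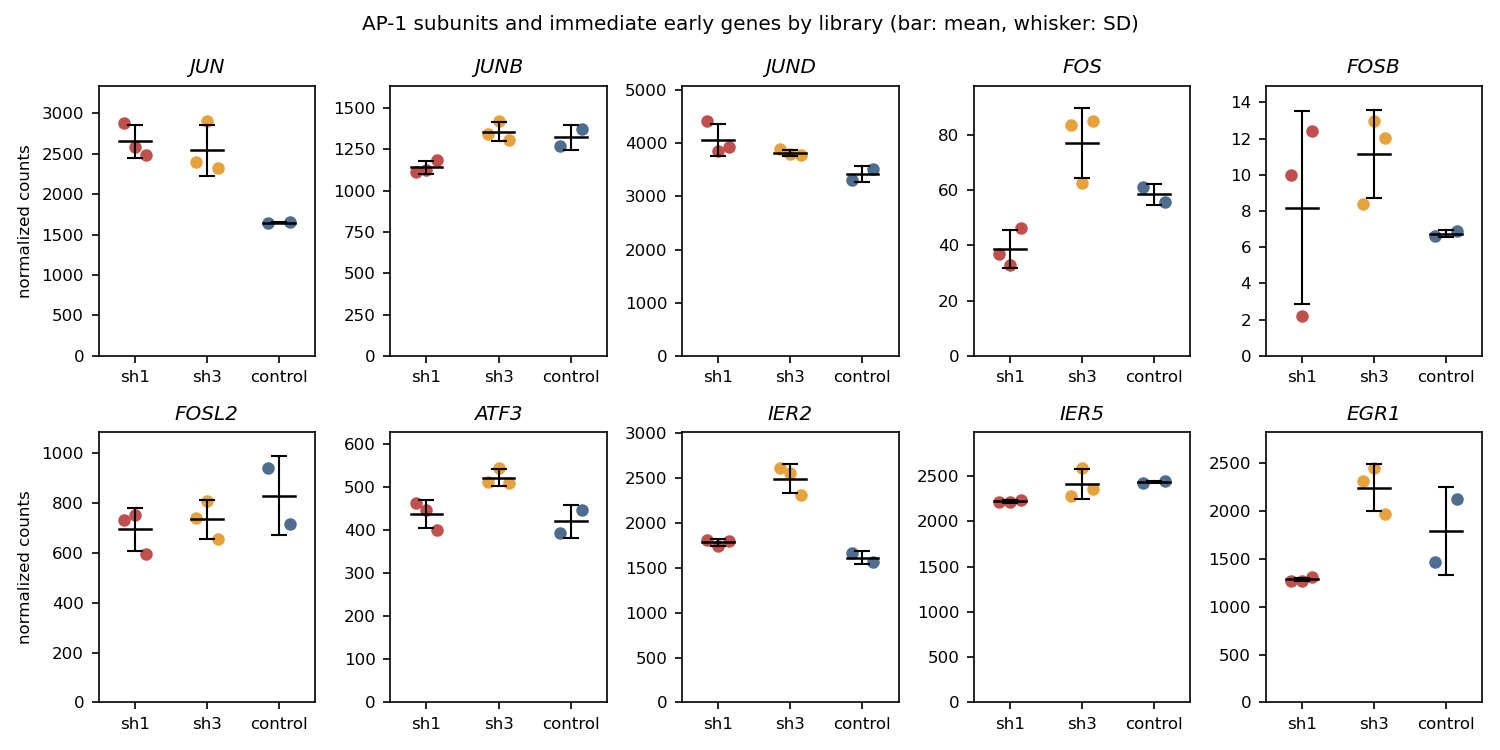
Normalized counts of the 10 genes, 1 point per library, with sh1, sh3 and control from left to right. The horizontal bar is the group mean and the whisker the SD (n = 3, 3 and 2), and each axis starts at 0. JUN is high with both hairpins, IER2 is highest with sh3, and FOS and EGR1 are lower with sh1 than with sh3.

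IER2 rose with sh3. IER2 (chromosome 19, 13150415 to 13154908, plus strand), a small nuclear protein of the immediate early response, had 1813, 1740 and 1802 normalized counts with sh1. It had 2618, 2559.5 and 2309 with sh3, against 1667 and 1564 in the controls. The 3 groups did not overlap, and the gap between sh3 and sh1 was wider than that between sh1 and control. The log2 change was 0.39 ± 0.060 (SE, adjusted p = 0.0026) for both constructs averaged, 0.63 ± 0.067 with sh3 (adjusted p = 0.00013, 1.54-fold) and 0.14 ± 0.067 with sh1 (adjusted p = 0.23). The difference between sh1 and sh3 was -0.48 ± 0.060 (adjusted p = 0.00038). Without control C the change for the mean of the constructs had an adjusted p of 0.055 (range over all alternatives 0.0017 to 0.055), while the change with sh3 and the difference between the constructs stayed called under every alternative. The antisense gene AC011446.2 overlaps IER2, and no source used here says whether reads were counted by strand, so that the reads of each cannot be told apart.

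IER5, a related immediate early gene with a role in heat shock factor activity, gave no call. IER5 (chromosome 1, 181088712 to 181092899, plus strand) had 2216, 2209 and 2233 normalized counts with sh1, 2282, 2593 and 2358 with sh3, and 2429 and 2444 in the controls. The sh1 libraries lay below all others. The log2 change was -0.13 ± 0.061 with sh1 (SE, adjusted p = 0.22) and -0.017 ± 0.061 with sh3 (adjusted p = 0.88).

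EGR1 differed between the constructs and could not be placed against the controls, which disagreed with each other. EGR1 (chromosome 5, 138465490 to 138469315, plus strand), a zinc finger transcription factor induced through serum response factor, had 1272, 1273 and 1307 normalized counts with sh1. It had 2311, 2452 and 1971 with sh3, against 1471 and 2121 in the controls. The sh1 libraries were the lowest and close together, control A stood slightly above them, and control C stood among the sh3 libraries. The difference between sh1 and sh3 was -0.80 ± 0.12 (SE, log2 scale, adjusted p = 0.0011), a ratio of 0.57, and stayed called under every alternative (adjusted p at most 0.026). Against control the changes were -0.46 ± 0.13 with sh1 (adjusted p = 0.062) and 0.34 ± 0.13 with sh3 (adjusted p = 0.094). With control C alone the change with sh1 was -0.72 (adjusted p = 0.010, range over all alternatives 0.010 to 0.44, and 0.0498 when only genes with a mean of 50 or more were kept), and with control A alone the change with sh3 was 0.60 (adjusted p = 0.011, range 0.011 to 0.69). Wherever a control is left out, here and elsewhere, the lone control is assumed to vary like the libraries of the other groups, which alone supply the spread.

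**Figure D3:**
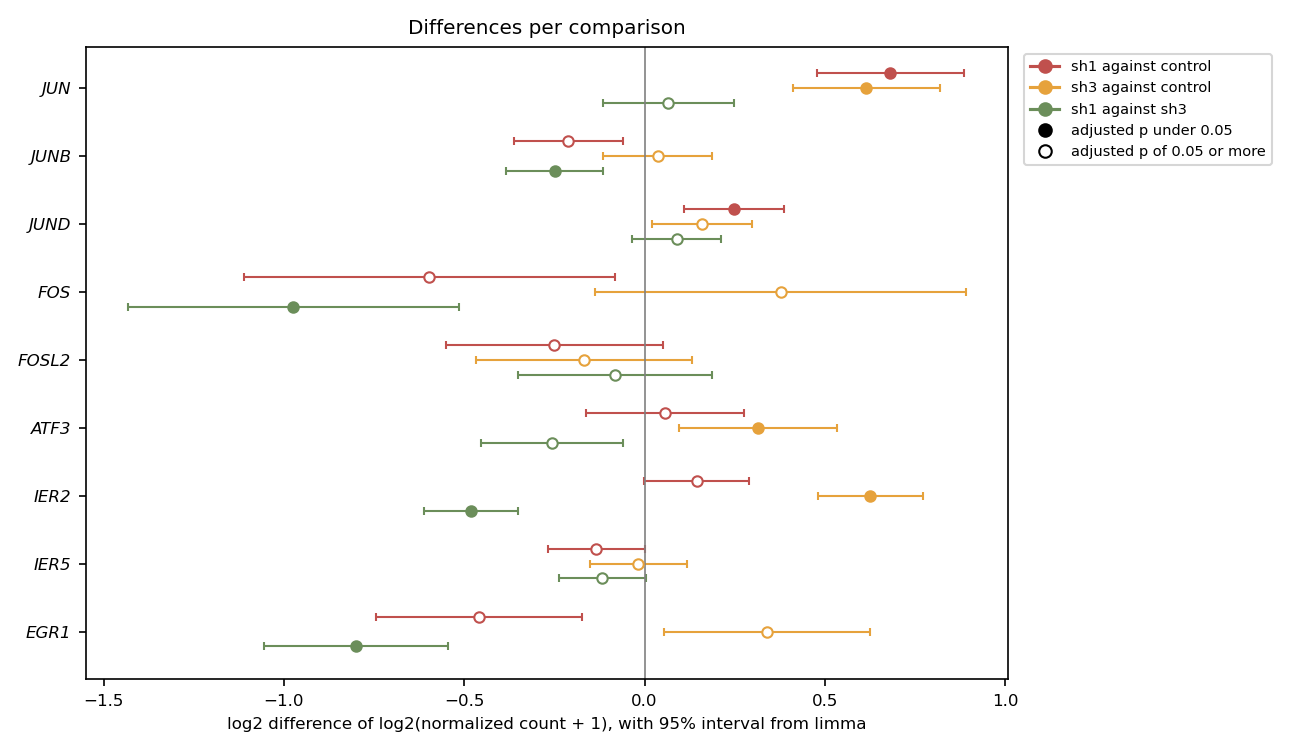
Log2 differences of the 9 tested genes for sh1 against control, sh3 against control and sh1 against sh3, with 95% intervals from limma. Filled points have an adjusted p under 0.05. JUN lies right of 0 against control with both constructs, and FOS, IER2, EGR1 and JUNB lie left of 0 for sh1 against sh3.

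Some summed markers of cell type and handling differed between the groups, though single genes did not all follow their sum. The summed level of 4 measured B cell markers, nearly all of it from CD79A, was 18021 to 19709 with sh1, 24070.4 to 25479 with sh3 and 24454 to 26205 in the controls. This sum was thus lower with sh1 than with sh3, as FOS and EGR1 were, while PAX5 was at most 5.49. The summed T lineage markers, given above, were lower in all 6 libraries in which JUN was high. Among them LAT did not follow the sum, averaging 392 with sh1, 397 with sh3 and 357 in the controls. CD3G averaged 8531 with sh1, 6082 with sh3 and 8270 in the controls, and so was not lower with sh1. The summed heat shock genes were 188866 to 205436 with sh1, 184459 to 189640 with sh3 and 201758 to 219094 in the controls, so that sh1 and control overlapped. The largest parts of this sum were HSP90AA1, averaging 98916 with sh1, 92072 with sh3 and 105905 in the controls, and HSPA8. DNAJB1 averaged 4148 with sh1, 4821 with sh3 and 3927 in the controls, and BAG3 836, 777 and 696. For the averaged constructs 2 of the 7 heat shock genes tested were higher and 4 lower at an unadjusted p under 0.05 in limma. With sh3 1 heat shock gene rose and 2 fell, and 1 B cell gene rose and 0 fell. Of all genes tested 9.36% rose and 9.19% fell with sh3. Of the genes tested in these lists 6 of 8 T lineage, 3 of 7 heat shock, 1 of 3 B cell and 1 of 2 adherent cell genes fell and 0 rose for the averaged constructs, where 6.19% of all genes tested fell and 6.55% rose. The summed adherent cell markers were 577 to 705 with sh1, 623 to 776 with sh3 and 833 to 863 in the controls. Nearly all of this sum was PECAM1, which averaged 565 with sh1, 634 with sh3 and 798 in the controls. KRT8, the other adherent marker tested, was not lower, averaging 34.0 with sh1, 38.0 with sh3 and 30.8 in the controls. The rest of those measured, COL1A1, COL1A2, EPCAM and KRT18, stayed at or below 19.4 normalized counts in every library. The 3 NK markers summed to 689 to 827 with sh1, 843 to 943 with sh3 and 770.0 to 786 in the controls. Their part in the results was not tested. Fewer cells of a type and less RNA per cell cannot be told apart in such bulk libraries.

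Among 12 other genes of the AP-1 and MAF families 11 were tested, of which ATF2 and MAFF rose and JDP2 and MAFK fell with the constructs averaged. Over all genes tested 6.55% rose and 6.19% fell. The median log2 change of the 11 was -0.013. ATF2, a CRE-binding partner of JUN, had 4013, 3756 and 4042 normalized counts with sh1 and 4354, 4492 and 3980 with sh3, against 3255 and 3234 in the controls. Its 6 knockdown libraries lay above both controls, and the log2 change was 0.34 ± 0.054 (SE, adjusted p = 0.0031), called under every alternative. MAFK, a small MAF protein, changed by -0.34 ± 0.057 (adjusted p = 0.0040) and JDP2, a repressor that dimerizes with JUN, by -1.10 ± 0.28 (adjusted p = 0.026), with values of 13.3 to 21.96 in the knockdown libraries, against 38.1 and 43.1 in the controls. JDP2 was not called without control A or without control C, with adjusted p up to 0.21 over all alternatives. MAFF, chosen after its value was seen, changed by 0.47 ± 0.14 (adjusted p = 0.047, up to 0.22 over the alternatives). Its call ended in 7 of the 8 fits that left out 1 library, all but the one without sh1 B.

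Of 38 other immediate early genes 28 were tested. With the constructs averaged 4 rose and 2 fell, where 6.55% of all genes tested rose and 6.19% fell. The median log2 change of the 28 was 0.045. PPP1R15A, which returns translation to normal after stress, and BTG1, an antiproliferative gene of lymphocytes, were named by the smallest p along with MYC. PPP1R15A had 699.9, 676 and 678 normalized counts with sh1, 921, 852 and 815 with sh3, and 597 and 633 in the controls. Its log2 change was 0.32 ± 0.071 (SE, adjusted p = 0.014) and that of BTG1 0.36 ± 0.091 (adjusted p = 0.025), and both lost their call without either control (adjusted p up to 0.11 for PPP1R15A and 0.20 for BTG1). MYC changed by -0.37 ± 0.074 (adjusted p = 0.0093), and its call was lost when control C was left out (adjusted p = 0.16, range over all alternatives 0.0072 to 0.16). The others called, chosen after their values were seen, were EGR2 (0.73 ± 0.19, adjusted p = 0.029), KLF10 (0.46 ± 0.12, adjusted p = 0.033) and SIK1 (-0.83 ± 0.24, adjusted p = 0.046). EGR2 was not called without sh1 B, sh3 A or either control, KLF10 without sh1 B, sh3 A, sh3 B or control C, and SIK1 in any fit without 1 library other than sh1 A and sh3 C.

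With sh1 0 genes rose and 1 fell, MYC (4 higher and 3 lower at an unadjusted p under 0.05 in limma), a call lost without sh1 B, sh3 B or control C. With sh3 7 rose and 3 fell. Over all genes tested 6.31% were called with sh1 and 18.6% with sh3. EGR2, a relative of EGR1 induced by antigen receptor signals, had 55.9, 65.4 and 43.9 normalized counts with sh1 and 105, 93.2 and 102 with sh3, against 43.7 and 44.6 in the controls. All sh3 libraries lay far above the rest, and the log2 change with sh3 was 1.16 ± 0.21 (SE, adjusted p = 0.0038), called under every alternative. The other genes that rose with sh3 were NR4A1 (1.52 ± 0.44), NR4A2 (0.69 ± 0.17), KLF10 (0.57 ± 0.14), BTG1 (0.55 ± 0.10), PPP1R15A (0.49 ± 0.079) and ZFP36 (0.40 ± 0.10), a gene whose protein speeds the decay of AU-rich messengers. NR4A1 had 14.0 normalized counts in control A, against 42.5 in control C, and its change was 0.75 and not called without control A. The genes that fell with sh3 were KLF6 (-0.29 ± 0.052), MYC (-0.39 ± 0.082) and SIK1 (-0.90 ± 0.27). BTG1, PPP1R15A, EGR2 and KLF6 stayed called with sh3 under every alternative. Calls were lost for NR4A1 also without sh3 B or sh3 C, for NR4A2 without sh3 A or either control, for KLF10 without sh3 A or control C, for ZFP36 without sh3 A, sh3 B or control C, for MYC without control C, and for SIK1 without sh3 A, sh3 B or either control.

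Tested directly, 6 of the 28 were lower with sh1 than with sh3 and 3 were higher, where 5.83% and 5.61% of all genes tested were. Lower with sh1 were EGR2 (-0.87 ± 0.19, log2 scale, SE), NR4A2 (-0.70 ± 0.16), DUSP2 (-0.58 ± 0.092), BTG1 (-0.37 ± 0.091), PPP1R15A (-0.33 ± 0.071) and MCL1 (-0.19 ± 0.044). Higher with sh1 were KLF6 (0.46 ± 0.047), NFIL3 (0.34 ± 0.091) and BTG2 (0.20 ± 0.058). NR4A2, DUSP2 and KLF6 stayed called under every alternative. EGR2 and PPP1R15A were not called without sh3 A, BTG1 without sh1 A, sh1 B, sh3 A or sh3 B, MCL1 without sh1 C or sh3 B, NFIL3 without sh1 B, sh1 C, sh3 A or sh3 C, and BTG2 without any one of the 6 knockdown libraries. DUSP1, the phosphatase that ends MAP kinase signalling in the same response, had 258, 276 and 242 normalized counts with sh1, 266, 293 and 294 with sh3, and 260.1 and 239 in the controls. The sh3 libraries lay above both controls, and sh1 overlapped both other groups.

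**Figure D4:**
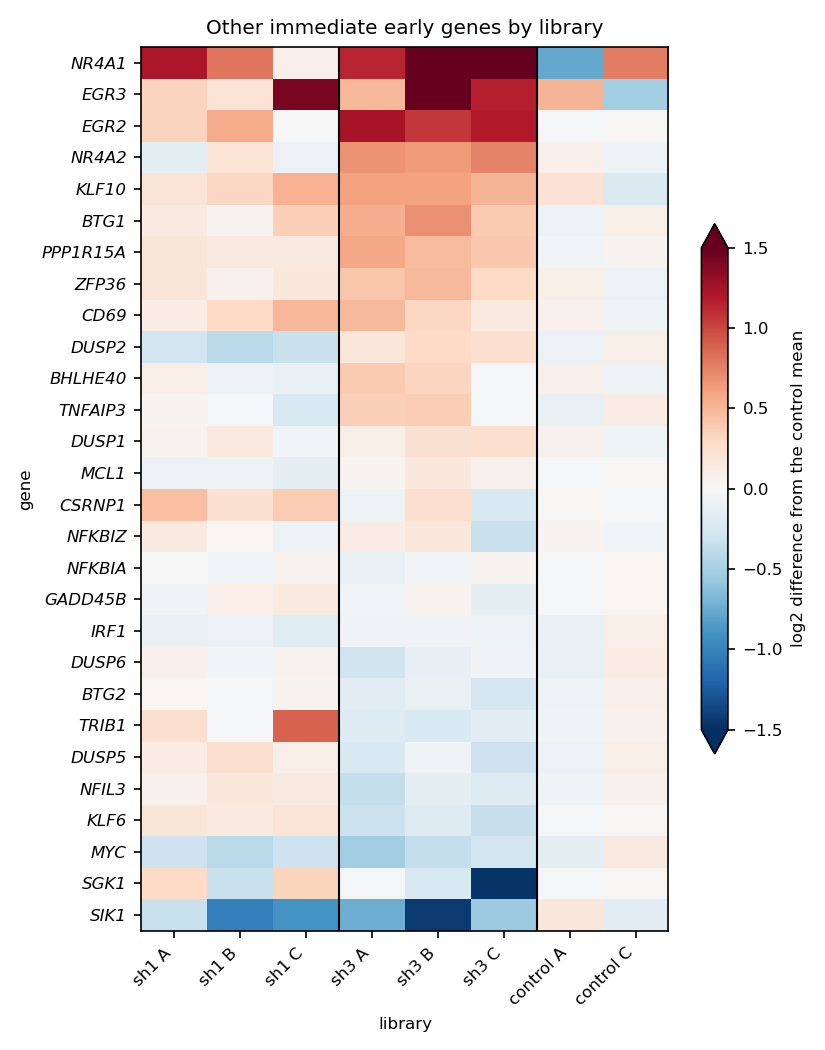
Log2 difference from the control mean for the 28 other immediate early genes tested, in rows, and the 8 libraries, in columns, with sh1, sh3 and control separated by lines and the colour scale ending at 1.5. EGR2, NR4A2, BTG1 and PPP1R15A are red mainly in the sh3 columns, and SIK1 and MYC are blue in all 6 knockdown columns.

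Upstream of these genes, 23 kinases and transcription factors were tested. With the constructs averaged 2 rose and 2 fell, where 6.55% of all genes tested rose and 6.19% fell. RPS6KA5, the kinase MSK1 that phosphorylates histone H3 and CREB at immediate early genes, rose by 0.47 ± 0.099 (log2 scale, SE, adjusted p = 0.011). SRF, serum response factor itself, had 3781, 3598 and 3608 normalized counts with sh1 and 3221, 3283 and 3312 with sh3, against 3922 and 4135 in the controls. Its change was -0.22 ± 0.045 (adjusted p = 0.010), lower with sh3 than with sh1 by the test of that difference (0.16 ± 0.045 for sh1 against sh3, adjusted p = 0.039), a call lost without any one of the 6 knockdown libraries. RPS6KA5 and SRF lost their calls against control when control C was left out, with adjusted p up to 0.17 and 0.15 over the alternatives. MAP2K2 changed by -0.16 ± 0.041 (adjusted p = 0.030) and BRAF, chosen after its value was seen, by 0.29 ± 0.080 (adjusted p = 0.034), and neither was called without sh3 A, sh3 B or control C, MAP2K2 also without sh1 B or control A and BRAF also without sh3 C. With sh1 0 of the 23 were called in limma, where 6.31% of all genes tested were, and 3 were higher and 5 lower at an unadjusted p under 0.05. With sh3 6 rose (BRAF, CREB1, ELK4, MAP2K7, RPS6KA3 and RPS6KA5) and 2 fell (MAP2K2 and SRF), where 9.36% of all genes tested rose and 9.19% fell. Each of these sh3 calls other than that of SRF ended in at least 1 fit without a library, that without control C among them.

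Of 11 genes that restrain AP-1 or EGR proteins 1 rose and 1 fell with the constructs averaged. The one that fell was SIRT1 itself, the target of the hairpins. Of all genes tested 6.55% rose and 6.19% fell. Of 15 genes known to be driven by AP-1, NFAT or EGR proteins in T cells 6 were tested. CCND3, a G1 cyclin, rose (0.33 ± 0.037, adjusted p = 0.00036), while CD44, an adhesion receptor, changed by -0.35 ± 0.053 (adjusted p = 0.0023) and CCND2 by -1.30 ± 0.37 (adjusted p = 0.042), the last with values of at most 14.4 in the knockdown libraries, against 32.6 and 17.2 in the controls. The call of CD44 ended without control C (adjusted p = 0.054), and CCND2 was not called in 7 of the 8 fits without 1 library, all but that without sh1 A.

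Likeness of pattern was measured for JUN, JUND and IER2, as the root mean square difference of centred log2 values over the 8 libraries among 11399 genes averaging 50 or more. Among the nearest to JUN were ZNF658 (0.090) and HCFC2 (0.12), to JUND NCOA2 (0.029) and ASB3 (0.035), and to IER2 DOCK8 (0.042). NCOA2 and ASB3 were themselves not called against control (adjusted p = 0.085 and 0.074).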

How the data were processed

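Per the labels' protocols, DND41 RNA was made into libraries that keep the strand. What the authors deposited is a signal, 1 normalized count value per gene symbol and library. Kallisto 0.44.0, DESeq and hg38 are named in the submitters' processing notes. No source used here gives the annotation or the filters. Whole reads could not be recovered, since within 0.02 of a multiple of a library's best step lay only 33.8% to 48.6% of its low values, so no count test was used.

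Values were analysed as log2(value + 1), on which fold changes of low genes are understated, for the 13885 of 18133 genes with a mean of at least 10. A limma 3.58.1 model (R 4.3.3) held 3 group means with 5 residual degrees of freedom and a variance prior following the mean. Tests were two-sided with Benjamini-Hochberg adjustment over all genes tested. The procedure was run on simulated data whose noise was drawn independently for each library from the model's own spread. Such data hold no shared cultures or batches, so that this run checks the code and not the calls given here. The 10 genes and the lists were chosen with earlier results of these data known.

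Named genes were the 10 genes, SIRT1, the 3 called genes of lowest p in each list for both constructs averaged, and the 2 nearest in pattern to each called member. In the lists of T lineage, heat shock, B cell and adherent cell genes these were CD7, CD3D, LCK, HSPE1, HSP90AA1, HSPD1, CD79A and PECAM1, all lower. They were picked by the smallest p, and other genes of these lists did not all fall. BAG3, DNAJB1, LAT and KRT8 averaged above the controls with both constructs. CD79B averaged 410 normalized counts with sh1, 665 with sh3 and 451 in the controls. A few further genes that the rule took are left unnamed here and remain in the counts. Coordinates are from GENCODE 29 on GRCh38. Alternatives were other pseudocounts, filters, scaling, variance priors, fits to the groups compared alone, the replicate letter as a block, and leaving out each library.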

Additional observations from a re-analysis of the deposited data

Results flagged for a closer look

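The effects of sh1 and sh3 against the shared controls differed, by the test of sh1 against sh3 in limma, for JUNB (-0.25, adjusted p = 0.023), FOS (-0.97, 0.012), IER2 (-0.48, 0.00038) and EGR1 (-0.80, 0.0011), each given as the sh1 effect minus the sh3 effect on the log2 scale.

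In the same test, other immediate early genes that differed were EGR2 (-0.87), NR4A2 (-0.70), DUSP2 (-0.58), KLF6 (0.46), BTG1 (-0.37), NFIL3 (0.34), PPP1R15A (-0.33), BTG2 (0.20) and MCL1 (-0.19). Upstream factors and restraining genes that differed were ELK3 (-0.55), FBXW7 (-0.27), CREB1 (-0.27), MAPK8 (0.25), RPS6KA3 (-0.17) and SRF (0.16). CCND3 (-0.23) and CD44 (-0.24) differed among the targets, CD7 (0.48), CD3D (0.25) and CD79A (-0.37) among lineage markers, and DOCK8 (-0.42) among the genes nearest to IER2. Each is the sh1 effect minus the sh3 effect on the log2 scale, with adjusted p between 0.00010 and 0.049. The share of all genes tested called in this comparison was 11.4%. CREB1 and RPS6KA3 lost these calls without sh1 B, sh1 C, sh3 A or sh3 B, FBXW7 without sh3 A, and CD44 without sh1 C or sh3 A.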

How the results depend on the processing

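Of 603 refits of the 9 tested genes under the alternatives, 558 kept direction and side of the threshold, 34 lost a call, 4 gained one and 7 turned direction. The number of genes called among the 9 was 1 to 3 when 1 library was left out for the mean of the constructs against control, 1 to 2 for sh1, 2 to 4 for sh3 and 2 to 4 for sh1 against sh3, beside 3, 2, 3 and 4 with all libraries. For sh1 against control it was 1 with a variance prior that has no trend and 1 with only the groups compared in the fit. The turns were in changes that were not called. With 1 library left out, EGR1 ranged from -0.32 to 0.20 for the averaged constructs, ATF3 from -0.037 to 0.15 with sh1, JUNB from -0.020 to 0.094, FOSL2 from -0.36 to 0.029 and IER5 from -0.071 to 0.021 with sh3, and FOSL2 from -0.16 to 0.023 for sh1 against sh3. The cause was not tested. No alternative turned the direction of JUN, JUND or IER2 against control.

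Over all genes 1768, 876, 2576 and 1589 were called in the 4 comparisons in that order, and 744, 236, 1531 and 968 with no trend in the prior. Leaving out 1 library gave 339 to 1898, 159 to 782, 860 to 2931 and 925 to 1770. For sh1 against control 462 genes were called with only those groups in the fit. The control group has 2 libraries. The averaged call of IER2 was lost without control C, while its call with sh3 was kept without either control. The calls of JUND and ATF3 given above were lost without either control, and also without single knockdown libraries.

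Libraries with the same letter did not deviate together over all genes (correlations of -0.062 to 0.058). None of the 3 sh1 libraries correlated best with the sh3 library of its own letter. What the letters mark was not tested, since correlations over all genes can miss a shared day that moves few genes. With the letter as a replicate block 3, 1, 2 and 4 of the 9 genes were called in the same order of comparisons, the uncalled change of FOS for the mean of the constructs turned to 0.016 (adjusted p = 0.97), and 1292, 549, 2071 and 1495 genes were called over the table.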

Other observations

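TNF, a cytokine gene on the list of AP-1 and NFAT targets, stood at 98.5 normalized counts in sh1 C and 92.2 in sh3 B and between 1.77 and 3.08 in the other 6 libraries. The heat shock gene HSPA1B stood at 34.2 in sh1 A and 38.0 in sh3 A and at most 1.154 elsewhere. In both genes the high values are in 1 sh1 and 1 sh3 library. These genes were chosen after their values were seen. HSPA1B has a near-identical copy, HSPA1A, so its value is uncertain.

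EGR3, a further EGR gene, stood at 17.5, 16.0 and 38.3 normalized counts with sh1 and 19.8, 71.7 and 32.0 with sh3, against 20.0 and 9.30 in the controls, with overlap between all groups.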
